A study of Homo sapiens with 12 samples.

Results

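The ribosome footprints of senescent fibroblasts were set against those of proliferating fibroblasts, gene by gene and function by function. The comparison used the 6 ribosome profiling libraries among the 12 libraries of the study, chosen by their labels: 3 labelled Pro (proliferating) and 3 labelled Sen (senescent). The other 6 libraries hold RNA-seq of the same lysates and were not used here. IMR90, the line used, is an established strain of untransformed fibroblasts from human fetal lung. The senescent cells had been passaged without pause until replicative exhaustion, and the proliferating cells were the same line while still dividing. The labels name no drug, knockdown or transgene in either group. Both states were lysed in a polysome buffer with cycloheximide, which holds ribosomes in place, and then digested with RNase I, which leaves the stretches of RNA that ribosomes cover. The culture notes name 2 isolates of the line, and which isolate gave which library was not given. The 3 libraries of a state come from independent replicas.

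A ribosome that is translating protects a short stretch of messenger RNA, and the number of such footprints on a coding sequence rises with the number of messages, with how densely ribosomes load them and with the length of the coding sequence. The footprints of a whole lysate can therefore be read as a budget: each gene holds a share of the ribosomes that were elongating at lysis. Fibroblasts spend much of that budget on secreted matrix, on the cytoskeleton and on making more ribosomes. Replicative senescence is a lasting exit from the cell cycle, known for high CDK inhibitors, loss of lamin B1 and of HMGB proteins, enlarged and flattened cells, and secretion of matrix-remodelling factors and cytokines.

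Each value below is a share: the footprints that the authors assigned to the coding sequence (CDS) of a gene, as a percentage of all CDS footprints in that library. Of 38716 gene symbols, 14052 had a CDS footprint in at least 1 of the 6 libraries, and 3876 of those were placed in 37 classes of gene function that form 8 themes. In bulk lysates, fewer cells of a kind and fewer footprints per cell cannot be told apart, and a share says nothing of the total number of ribosomes.

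The libraries differed widely in depth. Pro 1 held 54421 CDS footprints, Pro 2 685061 and Pro 3 1718521, and Sen 1 held 1672807, Sen 2 54708 and Sen 3 583798. Pro 1 and Sen 2 are thus shallow, and a count of 3, taken as the floor, was worth at most 0.00551% there and at most 0.000514% in the other 4 libraries (counting error only). The CDS held 34.4 to 88.8% of all assigned reads in Pro and 15.0 to 77.8% in Sen, with the lowest value of each state in its shallow library. Non-coding RNA held 4.75 to 52.5% in Pro and 11.4 to 45.2% in Sen, and only the CDS reads were used below as footprints. Between the deep libraries of a state, log CPM correlated at r = 0.972 (Pro 2 with Pro 3) and 0.968 (Sen 1 with Sen 3) across genes, which are not independent replicates, against 0.731 to 0.771 for same-state pairs with a shallow library. The 14 fibroblast markers together held 5.36 to 5.58% of footprints in Pro and 3.64 to 4.57% in Sen, and 5 of the 13 tested fell while 2 rose, so the line's own markers were abundant in both states but not level. Epithelial markers held at most 0.000657% and leukocyte markers at most 0.00368%, and PTPRC, CD3E, SFTPC and SFTPB were at 0 in all 6 libraries. The 8 endothelial markers together held 0.00368 to 0.00715% in Pro and 0.00791 to 0.0201% in Sen, without overlap. Of these, 4 (PECAM1, KDR, EMCN and ERG) were at 0 in all libraries, and TEK, the only one tested, rose (log2 fold change 0.69 ± 0.21 SE, edgeR adjusted p = 0.00638). The part of these markers in the results below was not tested. The 6 muscle markers held 0.0319 to 0.0378% in Pro and 0.0344 to 0.0394% in Sen.

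Genes were tested with edgeR's quasi-likelihood test on the counts, with Benjamini-Hochberg adjustment and the 15% false discovery rate of the study. All adjusted p values and log2 fold changes (senescent over proliferating, on the scale of TMM, which equalises most genes between libraries) come from that fit. Of 7521 genes tested, 4088 passed (54.4%): 2066 were higher in senescent cells (27.5%) and 2022 were lower (26.9%). The 3 shares of a state lay wholly above or below those of the other for 2547 genes (33.9%), 994 higher (13.2%) and 1553 lower (20.6%). With library totals in place of TMM, 4205 genes passed and 39.5% of them were higher, against 50.5% under TMM, and the median log2 fold change moved from -0.00 to -0.14. Shares follow the library totals, and can be lower in senescent cells where the fold change is near zero. Without Sen 1, the deepest senescent library, 2681 genes passed, and DESeq2 called 1164, all of them among the 4088, with fewer calls than edgeR in each of the 37 classes; without both shallow libraries, 4949 of 9213 passed.

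Senescent libraries spent more of their footprints on secretion, matrix, adhesion and glycolysis, and less on ribosomes, RNA processing and the cell cycle. The secretory pathway and matrix theme held 17.8, 18.8 and 18.9% of footprints in Pro 1 to 3 and 22.2, 20.8 and 21.4% in Sen 1 to 3, a gain of 2.94 percentage points (4.6 if shares are rescaled by TMM). Cytoskeleton and adhesion gained 1.63 points (2.84 if rescaled), from 13.9% ± 0.685 to 15.6% ± 0.794. Neither pair of groups overlapped.

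Protein synthesis lost the most. It held 8.99, 8.72 and 8.75% in Pro 1 to 3 and 6.52, 6.67 and 6.63% in Sen 1 to 3, and its share fell by 2.21 points. Genome and cell cycle fell by 1.55 points, from 3.58% ± 0.0505 to 2.04% ± 0.0964, and RNA and transcription fell by 1.52 points, from 4.83% ± 0.0983 to 3.31% ± 0.208. For these 3 themes, too, each Pro library lay above each Sen library. The remaining themes differed by less on library totals: the share of protein folding and turnover fell by 0.19 points with groups that lay just apart (a gain of 0.21 points if shares are rescaled by TMM), metabolism and transport overlapped between states (9.02 to 10.2% in Pro, 9.60 to 9.87% in Sen; a gain of 0.25 points, or 1.01 if rescaled), and the interferon and antigen presentation genes went from 0.464% ± 0.00159 to 0.523% ± 0.0305 (a gain of 0.0597 points, or 0.101 if rescaled). Genes in no class held 35.2% ± 0.447 and 35.8% ± 0.890. With 3 libraries against 3, an exact permutation test cannot go below p = 0.1, so shares summed over themes or classes are described here without a call of their own. All errors are SD over 3 libraries unless named otherwise.

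**Figure D1:**
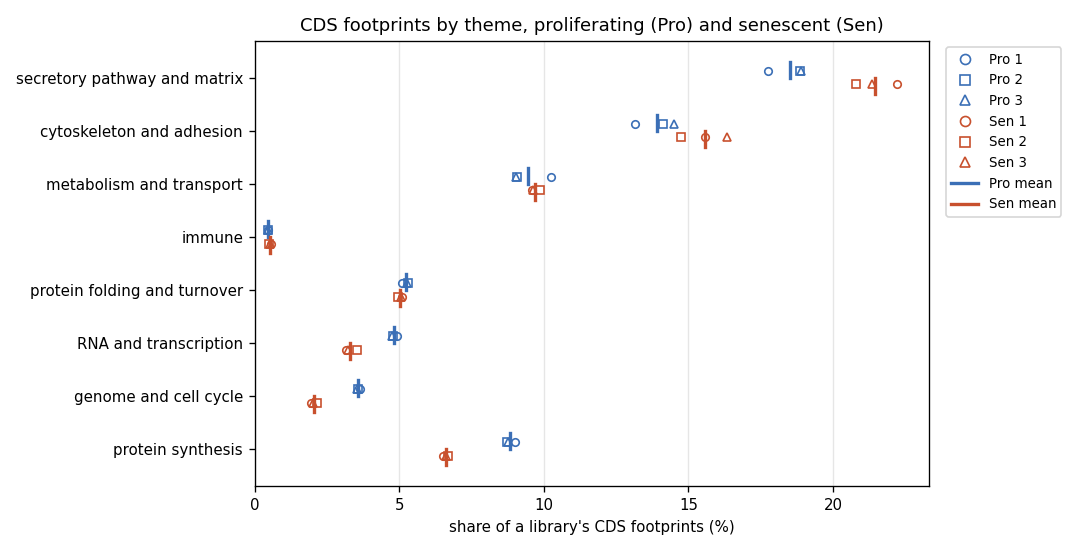
Share of CDS footprints (horizontal axis, % of a library) held by the 8 themes, with 1 point per library in blue for proliferating and orange for senescent, and a bar at each mean of 3. Protein synthesis sits at 8.72 to 8.99% in the proliferating libraries and at 6.52 to 6.67% in the senescent ones, and the secretory pathway and matrix theme lies at 17.8 to 18.9% against 20.8 to 22.2%.

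Between a deep proliferating and a deep senescent library, 20.2 to 22% of the footprints would have to be reassigned to turn one set of gene shares into the other, against 5.88 to 7.73% between deep libraries of the same state. Summed by class, 8.07 to 9.41% of footprints separated the states and 1.01 to 1.99% separated same-state libraries. Pairs with a shallow library differed by 15.7 to 19.1% within a state at the gene level, where counting error weighs most, but by only 3.20 to 3.96% at the class level. Of the 37 classes, 33 had groups that did not overlap (89.2%): 16 were higher and 17 lower in senescent cells. Sen 2, a shallow library, was the senescent library nearest the proliferating mean in 21 of those 33 classes.

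**Figure D2:**
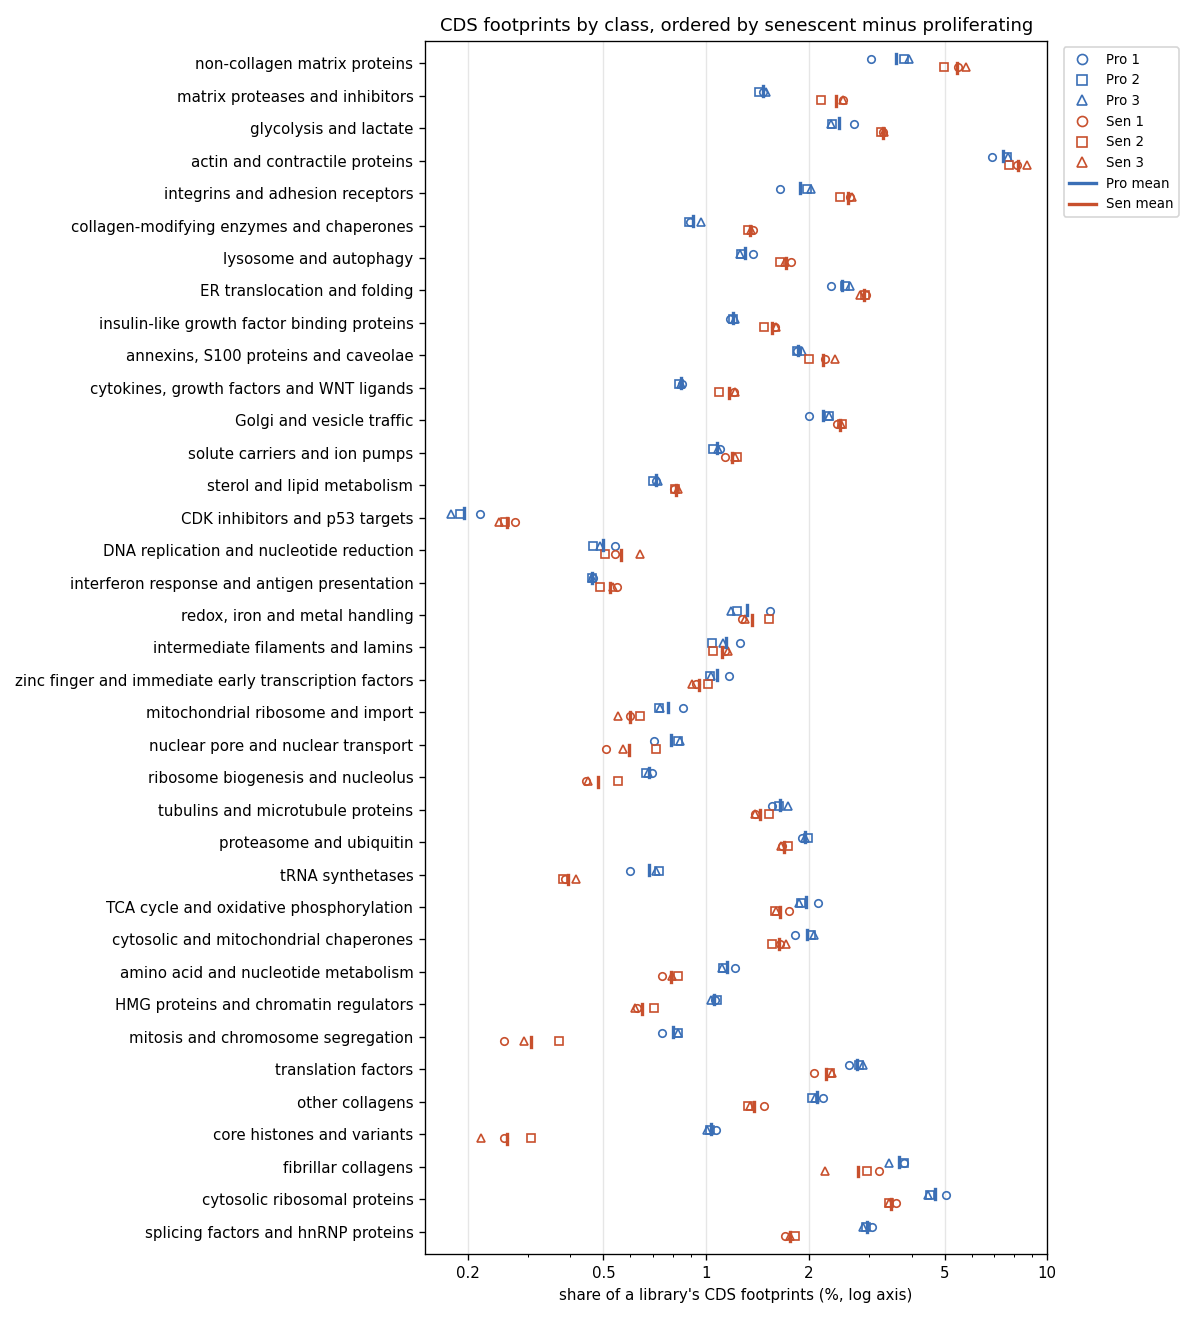
Share of CDS footprints (horizontal log axis, % of a library) for the 37 classes, ordered by the senescent minus the proliferating mean, with 1 point per library and a bar at each mean of 3. The class of non-collagen matrix proteins at the top gained 1.83 points, the splicing factors and ribosomal proteins at the bottom each lost 1.20 points, and core histones show the widest gap on this axis, 1.01 to 1.07% against 0.219 to 0.307%.

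Matrix glycoproteins made the largest gain of any class. Non-collagen matrix proteins held 3.05, 3.79 and 3.94% in Pro 1 to 3 and 5.49, 4.98 and 5.79% in Sen 1 to 3. The gain rested on a few heavily read genes: of 66 members tested, 28 rose and 23 fell, with a median log2 fold change of 0.23 against -0.00 for all genes tested. THBS1, which encodes thrombospondin 1, an adhesive glycoprotein that binds latent TGF-beta, held 0.313, 0.357 and 0.384% in Pro and 0.981, 0.889 and 1.11% in Sen. It rose with a log2 fold change of 1.60 ± 0.20 (SE; edgeR adjusted p = 2.43e-10), and had the largest gain of share among the genes that passed. Without THBS1 the class still went from 3.24% ± 0.441 to 4.43% ± 0.303, with no overlap.

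FN1, the fibronectin of the pericellular matrix, went from 0.588, 0.842 and 0.838% to 1.26, 0.923 and 1.30% (log2 fold change 0.73 ± 0.21 SE, edgeR adjusted p = 0.00297). Pro 1 was lowest and Sen 2 was the lowest of its state, but each Sen library exceeded each Pro library. CCN2, the connective tissue growth factor, held 0.211, 0.174 and 0.188% in Pro and 0.538, 0.436 and 0.579% in Sen. Its fold change was close to that of THBS1 (log2 fold change 1.59 ± 0.19 SE, edgeR adjusted p = 5.82e-11). SPARC, a collagen-binding glycoprotein, held 0.261, 0.289 and 0.294% and then 0.584, 0.517 and 0.562%, and rose by 1.08 ± 0.19 (SE; edgeR adjusted p = 1.47e-06) on the log2 scale. Members of the same class fell too. POSTN, the matricellular protein periostin, named after its values were seen, had the steepest fall in the class (log2 fold change -4.91 ± 0.25 SE, edgeR adjusted p = 1.05e-28).

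Proteases that remodel the matrix, and their inhibitors, held 1.47, 1.43 and 1.5% in Pro and 2.52, 2.18 and 2.52% in Sen, and of 44 members tested 27 rose and 7 fell (median log2 fold change 0.74). PLAT, the tissue plasminogen activator, a secreted protease, rose from 0.0459, 0.0361 and 0.0390% to 0.240, 0.148 and 0.242% (log2 fold change 2.62 ± 0.19 SE, edgeR adjusted p = 9.97e-20). TIMP3, a matrix-bound inhibitor of metalloproteinases, rose from 0.0658% ± 0.0114 to 0.248% ± 0.0409 (log2 fold change 2.15 ± 0.19 SE, edgeR adjusted p = 2.2e-16), whereas TIMP1, the secreted inhibitor with the larger share, held 0.353% ± 0.0249 in Pro and 0.340% ± 0.0329 in Sen and did not pass (edgeR adjusted p = 0.764).

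The insulin-like growth factor binding proteins, secreted carriers of IGFs, divided. IGFBP7 held 0.0698, 0.0544 and 0.0574% in Pro and 0.388, 0.297 and 0.375% in Sen, a ratio of 5.83 (log2 fold change 2.74 ± 0.19 SE, edgeR adjusted p = 1.26e-20). IGFBP3, the main IGF carrier of serum, held 0.0634, 0.0381 and 0.0412% and then 0.326, 0.225 and 0.261%, a ratio of 5.69 (log2 fold change 2.81 ± 0.20 SE, edgeR adjusted p = 6.55e-21). Both groups lay far apart. IGFBP4 rose from 0.0635% ± 0.0135 to 0.123% ± 0.0264. IGFBP5, the third most read gene of proliferating cells, held less in Sen, 0.981% ± 0.0674 in Pro and 0.762% ± 0.0769 in Sen, without overlap but also without passing the test (log2 fold change -0.27 ± 0.19 SE, edgeR adjusted p = 0.267). Of 7 members tested, 5 rose and 1 fell (5 and 2 under library totals), and the class went from 1.20% ± 0.0201 to 1.56% ± 0.0689. Without IGFBP7 it went from 1.14% ± 0.0275 to 1.21% ± 0.0225, a gain of 0.0704 points.

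Cytokines, growth factors and WNT ligands went from 0.841% ± 0.0110 to 1.17% ± 0.0704, and 29 of 52 tested rose while 10 fell. The most read member, FSTL1, a follistatin-like secreted glycoprotein, rose from 0.158% ± 0.0243 to 0.228% ± 0.0136 (log2 fold change 0.62 ± 0.18 SE, edgeR adjusted p = 0.00308). WNT5A, a ligand of non-canonical WNT signalling, held 0.0413, 0.0413 and 0.0393% in Pro and 0.0931, 0.0783 and 0.0862% in Sen and rose by 1.25 ± 0.17 (SE; edgeR adjusted p = 2.06e-09). MIF, a macrophage migration inhibitory cytokine, held 0.0689% ± 0.0190 in Pro and 0.0712% ± 0.00458 in Sen and did not pass. The chaperone-like CLU did not pass either, at 0.0601% ± 0.00524 in Pro and 0.0605% ± 0.00780 in Sen.

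Collagens lost share while the enzymes that modify them gained. Fibrillar collagens held 3.79, 3.80 and 3.43% in Pro and 3.21, 2.96 and 2.22% in Sen, and Sen 3 was lowest. COL1A1, the most read gene in both states, held 1.88, 1.86 and 1.72% in Pro and 1.70, 1.51 and 1.14% in Sen. The shares did not overlap, yet Sen 1 lay just below Pro 3 and the gene did not pass (log2 fold change -0.22 ± 0.21 SE, edgeR adjusted p = 0.414). COL1A2, the partner chain of type I collagen, fell from 1.18, 1.34 and 1.22% to 1.02, 0.933 and 0.698%, the largest loss of share among genes called, and its call was weak (log2 fold change -0.39 ± 0.20 SE, edgeR adjusted p = 0.106). It was lost in 5 of the alternative fits, among them those without Pro 2, Pro 3 or Sen 3. COL3A1 fell from 0.330% ± 0.0624 to 0.176% ± 0.0338 (log2 fold change -0.82 ± 0.18 SE, edgeR adjusted p = 0.000141). COL5A2 held 0.170% ± 0.0270 in Pro and 0.171% ± 0.0368 in Sen and did not pass. Of 7 fibrillar collagens tested, 1 rose and 2 fell (42.9% called, against 54.4% of all genes tested). Their median log2 fold change was 0.12, so the loss lay in the most read chains. With the 2 shallow libraries left out, 2 rose and 3 fell of 8.

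The other collagens went from 2.20, 2.04 and 2.09% in Pro to 1.48, 1.33 and 1.34% in Sen, and of 14 tested 2 rose and 7 fell. The 3 most read chains of the collagen VI microfibril were among those that fell. COL6A3 fell from 0.356, 0.572 and 0.609% to 0.264, 0.256 and 0.279% (log2 fold change -0.86 ± 0.19 SE, edgeR adjusted p = 0.000162), COL6A1 from 0.358% ± 0.0536 to 0.188% ± 0.0229 (log2 fold change -0.75 ± 0.18 SE, edgeR adjusted p = 0.000412), and COL6A2 from 0.304% ± 0.0543 to 0.194% ± 0.0158 (log2 fold change -0.51 ± 0.18 SE, edgeR adjusted p = 0.015). COL12A1, a fibril-associated collagen, held 0.156, 0.275 and 0.295% in Pro and 0.135, 0.148 and 0.154% in Sen; Pro 1 lay just above Sen 3 (log2 fold change -0.69 ± 0.18 SE, edgeR adjusted p = 0.00159). COL1A1, COL1A2, COL3A1, COL6A1 and COL6A3 are also among the fibroblast markers, whose summed share was lower in Sen, and the part of that list in the collagen result was not tested. COL4A1, of basement membranes, overlapped and did not pass, at 0.285% ± 0.0849 in Pro and 0.265% ± 0.0485 in Sen.

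Collagen-modifying enzymes and chaperones held 0.896, 0.893 and 0.964% in Pro and 1.37, 1.32 and 1.35% in Sen, and of 22 tested 14 rose and 1 fell (median 0.53), or 13 and 3 under library totals. The crosslinking oxidases led. LOX held 0.137, 0.130 and 0.148% and then 0.258, 0.251 and 0.237% (log2 fold change 0.96 ± 0.17 SE, edgeR adjusted p = 5.23e-06), and LOXL2 held 0.130, 0.160 and 0.164% and then 0.294, 0.272 and 0.294% (log2 fold change 1.01 ± 0.18 SE, edgeR adjusted p = 2.64e-06). The chaperone of procollagen, SERPINH1, did not pass, at 0.208% ± 0.0203 in Pro and 0.168% ± 0.0159 in Sen (log2 fold change -0.24 ± 0.17 SE, edgeR adjusted p = 0.269). The only member that fell was PCOLCE, the enhancer of procollagen C-proteinase (log2 fold change -2.01 ± 0.19 SE, edgeR adjusted p = 1.44e-14), named after its values were seen. These collagens and the other genes with the largest changes in share are drawn in the plot of named genes.

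**Figure D3:**
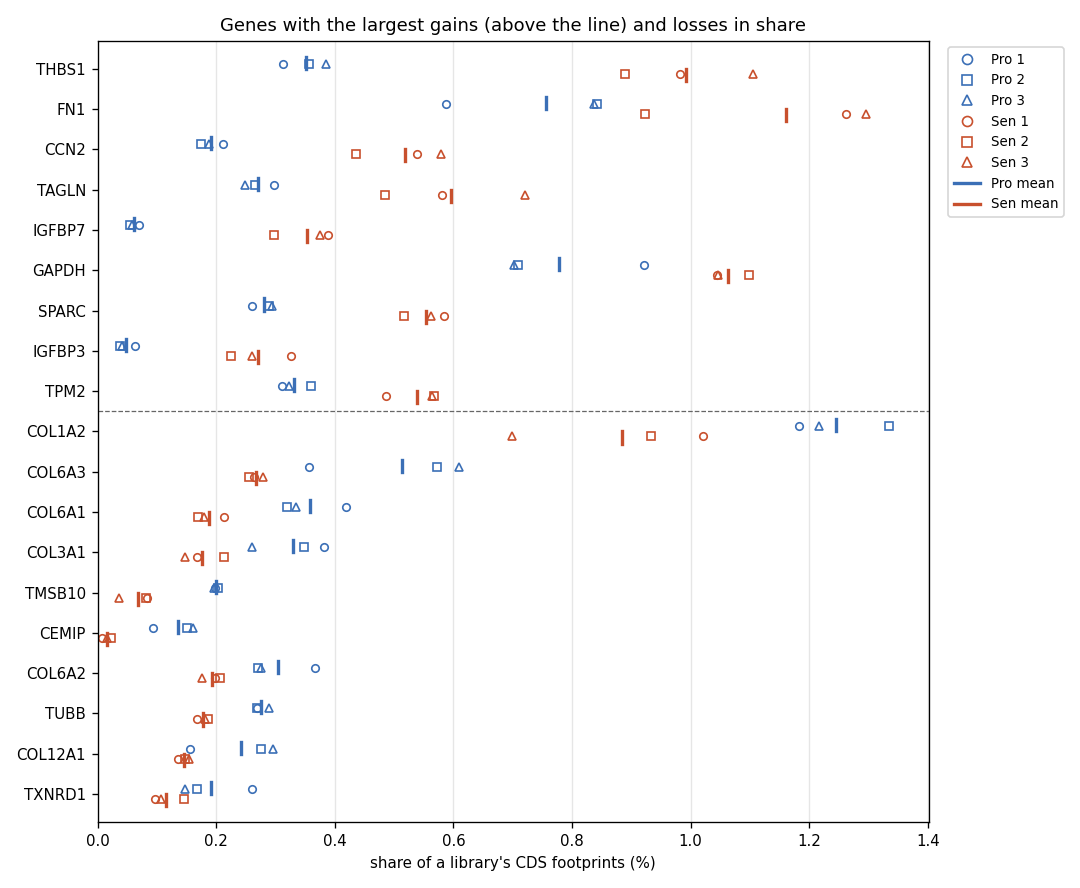
Share of CDS footprints (horizontal axis, % of a library) of 9 of the 10 genes with the largest gains (above the dashed line) and the 10 with the largest losses in mean share, among genes that passed the test and whose groups did not overlap, with 1 point per library and a bar at each mean of 3. The 9 gains shown add up to 2.98 points, of which THBS1 holds 0.641, and the losses of COL1A2 and COL6A3 are the widest below the line.

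Those 9 gains made up 15.0% of all the share gained by any gene, and the 10 losses, which add up to -1.56 points, made up 7.87%. COL1A1, EEF1A1 and IGFBP5 did not pass the test and are not among the 10 losses, although their senescent minus proliferating mean shares were -0.367, -0.224 and -0.218 points. The gains and losses shown were chosen for the size of the difference, which is given as a description. CEMIP, a hyaluronan-binding protein that takes part in hyaluronan breakdown, is in no class and had the steepest fall among the 10 losses, from 0.0937, 0.151 and 0.161% to 0.00795, 0.0219 and 0.0161% (log2 fold change -3.47 ± 0.22 SE, edgeR adjusted p = 2.46e-23).

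Genes of the organelles that carry secreted and degraded proteins also gained share. Proteins of ER translocation and folding held 2.33, 2.56 and 2.63% in Pro and 2.93, 2.93 and 2.82% in Sen. Of 87 tested, 58.6% were called, near the 54.4% of all genes tested: 44 rose and 7 fell. Under library totals it was 31 and 13, and under DESeq2 12 and 1. P4HB, the protein disulfide isomerase that is also a subunit of prolyl 4-hydroxylase, rose from 0.133% ± 0.00733 to 0.216% ± 0.00976 (log2 fold change 0.82 ± 0.17 SE, edgeR adjusted p = 5.97e-05), and the calcium-binding CALU rose from 0.111% ± 0.0276 to 0.168% ± 0.00218. The most read ER chaperones did not pass: CALR held 0.201% ± 0.0362 in Pro and 0.224% ± 0.0130 in Sen, and HSPA5, the chaperone BiP, held 0.213% ± 0.0229 in Pro and 0.178% ± 0.00924 in Sen. Golgi and vesicle traffic genes went from 2.19% ± 0.166 to 2.47% ± 0.0479. Of 179 tested, 59 were higher and 19 lower, or 46 and 39 under library totals. That is 43.6% called, against 54.4% of all genes tested. Their median log2 fold change was near zero, at 0.06 (-0.07 under library totals). Within this class ARF4, a small GTPase of the Golgi, rose from 0.0602% ± 0.00672 to 0.102% ± 0.00464, while CLTC, the clathrin heavy chain, held 0.140% ± 0.0514 in Pro and 0.108% ± 0.00894 in Sen with overlap and was called lower (log2 fold change -0.35 ± 0.18 SE, edgeR adjusted p = 0.107).

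Of 90 lysosome and autophagy genes tested, 56 rose and 2 fell (median log2 fold change 0.59; 21 and 0 under DESeq2), and the class held 1.37, 1.27 and 1.26% in Pro and 1.78, 1.65 and 1.70% in Sen. CD63, a tetraspanin of late endosomes and lysosomes, held 0.127, 0.0982 and 0.0936% and then 0.194, 0.166 and 0.172% (log2 fold change 0.94 ± 0.17 SE, edgeR adjusted p = 6.28e-06). PSAP, the precursor of the saposins that help to degrade sphingolipids, rose from 0.108% ± 0.0121 to 0.144% ± 0.00837 (log2 fold change 0.52 ± 0.17 SE, edgeR adjusted p = 0.0104). Other heavily read members did not follow: the autophagy receptor SQSTM1 held 0.142% ± 0.0449 in Pro and 0.128% ± 0.0101 in Sen, and the protease CTSB held 0.117% ± 0.0116 in Pro and 0.117% ± 0.0277 in Sen. Neither passed.

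Actin and contractile proteins were the largest class in both states. They held 6.87, 7.64 and 7.69% in Pro and 8.16, 7.70 and 8.73% in Sen, where Pro 3 and Sen 2 nearly touched. Of 104 tested, 59.6% were called, against 54.4% of all genes tested: 44 rose and 18 fell, or 37 and 33 under library totals. TAGLN, the smooth-muscle actin-binding protein SM22, held 0.297, 0.265 and 0.249% in Pro and 0.581, 0.485 and 0.721% in Sen (log2 fold change 1.29 ± 0.19 SE, edgeR adjusted p = 4.48e-08). Without TAGLN the class shares overlapped, at 7.13% ± 0.485 and 7.60% ± 0.397. TPM2, a tropomyosin, rose from 0.311, 0.360 and 0.323% to 0.486, 0.567 and 0.564% (log2 fold change 0.79 ± 0.18 SE, edgeR adjusted p = 0.000283). In contrast, TMSB10, a small thymosin that binds actin monomers, fell from 0.198, 0.203 and 0.196% to 0.0836, 0.0823 and 0.0365%, lowest in Sen 3 (log2 fold change -1.5 ± 0.19 SE, edgeR adjusted p = 5.65e-10). The actins themselves did not pass, with ACTB at 0.470% ± 0.0272 in Pro and 0.413% ± 0.0322 in Sen, and ACTG1 at 0.490% ± 0.0608 in Pro and 0.389% ± 0.0176 in Sen; their coding sequences are nearly identical, and how the authors' counting divides shared reads limits each value.

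Integrins and adhesion receptors held 1.64, 1.97 and 2.03% in Pro and 2.65, 2.47 and 2.68% in Sen, with 31 of 61 higher and 10 lower. CD44, the hyaluronan receptor, held 0.169, 0.223 and 0.216% in Pro and 0.410, 0.373 and 0.414% in Sen (log2 fold change 1.06 ± 0.18 SE, edgeR adjusted p = 1.59e-06). LRP1, an endocytic receptor, and the tetraspanin CD151 rose from 0.0888% ± 0.0115 to 0.129% ± 0.00941 and from 0.0713% ± 0.00479 to 0.127% ± 0.00283. ITGB1, the beta 1 integrin chain, was among the most read members, overlapped and did not pass, at 0.314% ± 0.0815 in Pro and 0.346% ± 0.0217 in Sen. Annexins, S100 proteins and caveolar proteins went from 1.86% ± 0.0364 to 2.20% ± 0.190, with 15 of 29 higher and 4 lower. LGALS1, the secreted lectin galectin-1, rose from 0.255, 0.254 and 0.259% to 0.405, 0.380 and 0.510% (log2 fold change 0.88 ± 0.18 SE, edgeR adjusted p = 6.11e-05), and without it the class overlapped, at 1.61% ± 0.0338 and 1.77% ± 0.131. S100A6 and CAVIN1, of calcium binding and of caveolae, also rose, from 0.15% ± 0.00481 to 0.201% ± 0.0344 and from 0.124% ± 0.0160 to 0.194% ± 0.0435. The annexin ANXA5, also among the most read members, held 0.270% ± 0.0285 in Pro and 0.303% ± 0.00400 in Sen. Its groups did not overlap, but it did not pass (log2 fold change 0.26 ± 0.18 SE, edgeR adjusted p = 0.234).

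Tubulins and microtubule proteins fell in share, from 1.64% ± 0.0902 to 1.44% ± 0.0821, although 14 of 53 tested rose and 12 fell (12 and 16 under library totals). That is 49.1% called, against 54.4% of all genes tested. TUBB, a beta tubulin, held 0.269, 0.270 and 0.290% in Pro and 0.168, 0.186 and 0.181% in Sen (log2 fold change -0.53 ± 0.17 SE, edgeR adjusted p = 0.0107). The call for TUBB was lost without Pro 3 and without Sen 1. Without TUBB the class shares overlapped, at 1.37% ± 0.0794 in Pro and 1.26% ± 0.0754 in Sen. TUBA1A, TUBA1B and TUBA1C were each called lower, with log2 fold changes of -0.30, -0.37 and -0.31, but these paralogs are near-identical and their reads cannot be told apart with certainty. Intermediate filaments and lamins overlapped, at 1.14% ± 0.107 in Pro and 1.11% ± 0.0596 in Sen, and VIM, the vimentin of mesenchymal cells, did not pass, at 0.756% ± 0.111 in Pro and 0.765% ± 0.0553 in Sen.

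In metabolism, glycolysis gained share, and amino acid and nucleotide genes lost it. Glycolysis and lactate genes held 2.71, 2.34 and 2.32% in Pro and 3.30, 3.25 and 3.33% in Sen, and 20 of 28 tested rose while 2 fell (median 0.62; 13 and 1 under DESeq2). GAPDH, the glyceraldehyde-3-phosphate dehydrogenase, held 0.922, 0.708 and 0.703% in Pro and 1.04, 1.10 and 1.05% in Sen (log2 fold change 0.57 ± 0.20 SE, edgeR adjusted p = 0.0137). Pro 1 was the highest of its state and still lay below each Sen library. PKM, the pyruvate kinase, rose from 0.467% ± 0.0269 to 0.628% ± 0.0344 (log2 fold change 0.55 ± 0.19 SE, edgeR adjusted p = 0.0128), and LDHA, which makes lactate, from 0.216% ± 0.00740 to 0.277% ± 0.0154 (log2 fold change 0.48 ± 0.18 SE, edgeR adjusted p = 0.0221). ENO1, the enolase, held 0.263% ± 0.00596 in Pro and 0.227% ± 0.0211 in Sen and did not pass. Without GAPDH the class still went from 1.68% ± 0.0939 to 2.23% ± 0.0720.

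Amino acid and nucleotide metabolism went from 1.22, 1.12 and 1.11% in Pro to 0.741, 0.828 and 0.793% in Sen, with 8 of 54 higher and 30 lower, or 2 and 16 under DESeq2. PGD, an oxidative enzyme of the pentose phosphate pathway, was called lower with overlapping shares, since Sen 2 reached 0.0676% while Sen 1 and Sen 3 held 0.0338% and 0.0415% (log2 fold change -0.69 ± 0.17 SE, edgeR adjusted p = 0.000615). The TCA cycle and oxidative phosphorylation fell in share, from 1.97% ± 0.138 to 1.65% ± 0.0867, but their median log2 fold change was -0.03. Of 114 tested, 49.1% were called, against 54.4% of all genes tested: 23 were higher and 33 lower. Under library totals it was 18 and 47, and under DESeq2 0 and 5. ATP5F1A, the alpha subunit of ATP synthase, fell from 0.0928% ± 0.00240 to 0.0632% ± 0.00296 (log2 fold change -0.40 ± 0.16 SE, edgeR adjusted p = 0.04), while the beta subunit gene ATP5F1B overlapped and did not pass, at 0.116% ± 0.00812 in Pro and 0.106% ± 0.00157 in Sen.

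Sterol and lipid genes went from 0.711% ± 0.0109 to 0.814% ± 0.0115. Of 59 tested, 59.3% were called, against 54.4% of all genes tested: 28 were higher and 7 lower, or 22 and 13 under library totals. PLIN3, a lipid droplet coat protein, rose from 0.0280% ± 0.000547 to 0.0566% ± 0.00834 (log2 fold change 1.21 ± 0.16 SE, edgeR adjusted p = 3.47e-09), whereas FASN, the fatty acid synthase, held 0.0422% ± 0.00713 in Pro and 0.0328% ± 0.00181 in Sen and did not pass. Solute carriers and ion pumps went from 1.08% ± 0.0252 to 1.19% ± 0.0504. Of 134 tested, 57.5% were called, near the 54.4% of all genes tested: 61 were higher and 16 lower, or 54 and 24 under library totals. Heavily read members did not follow that count: SLC3A2, the heavy chain of amino acid exchangers, fell from 0.0608% ± 0.00627 to 0.0390% ± 0.00434 (log2 fold change -0.52 ± 0.16 SE, edgeR adjusted p = 0.00636), and SLC38A2, a glutamine carrier, did not pass. Redox, iron and metal genes overlapped, at 1.32% ± 0.192 in Pro and 1.37% ± 0.136 in Sen. In that class TXNRD1, the cytosolic thioredoxin reductase, fell from 0.261, 0.167 and 0.147% to 0.0960, 0.146 and 0.106%, with Pro 3 and Sen 2 almost equal and the call lost without Sen 1 (log2 fold change -0.59 ± 0.18 SE, edgeR adjusted p = 0.00522), while the peroxiredoxin PRDX6 rose from 0.108% ± 0.00966 to 0.179% ± 0.0119 (log2 fold change 0.86 ± 0.17 SE, edgeR adjusted p = 2.68e-05).

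The making of ribosomes and their factors took the largest loss by theme. Cytosolic ribosomal proteins held 5.06, 4.53 and 4.47% in Pro and 3.61, 3.43 and 3.43% in Sen. All 81 members were tested: 4 rose, 45 fell and 32 did not pass, with a median log2 fold change of -0.34 (-0.47 under library totals). The fall was shallow and spread over many members. The 3 most read members, by the mean of all libraries, did not pass. RPL10, of the large subunit, held 0.119% ± 0.0163 in Pro and 0.114% ± 0.0132 in Sen. RPL4, also of the large subunit, held 0.122% ± 0.0134 in Pro and 0.109% ± 0.0178 in Sen, and RACK1, a scaffold on the small subunit, held 0.149% ± 0.0196 in Pro and 0.129% ± 0.00626 in Sen. RPL15 fell from 0.133% ± 0.0145 to 0.0874% ± 0.0116 (log2 fold change -0.38 ± 0.17 SE, edgeR adjusted p = 0.0604). RPS3A lost the most share of the class, from 0.101% ± 0.0119 to 0.0541% ± 0.00620, and without it the class went from 4.58% ± 0.318 to 3.44% ± 0.108. Many ribosomal protein genes have processed pseudogenes, and reads shared with those limit single values.

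Messages of ribosomal proteins and many translation factors are known to begin with a 5′ terminal oligopyrimidine tract (TOP), a C followed by pyrimidines, through which growth signalling sets their translation. The first 20 bases after the annotated start (RefSeq, GRCh38.p14) are shown for genes of this theme and, for contrast, for matrix genes that gained, with the leading run of a C and at least 4 pyrimidines (C or T) in capitals.
EEF1A1, chr6:73521013-73521032, minus strand: CTTTTTCgcaacgggtttgc
RPLP0, chr12:120201092-120201111, minus strand: CCTTCTCTCgccaggcgtcc
RPS3A, chr4:151099628-151099647, plus strand: CCCTTTTggctctctgacca
EEF2, chr19:3985444-3985463, minus strand: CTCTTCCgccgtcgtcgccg
RPL3, chr22:39319604-39319623, minus strand: ctctaccggcgggatttgat
THBS1, chr15:39581079-39581098, plus strand: agccgctgcgcccgagctgg
SPARC, chr5:151686896-151686915, minus strand: agactgcccggagagcgcgc
FN1, chr2:215436049-215436068, minus strand: gcccgcgccggctgtgctgc
The run in RPL3 is 1 pyrimidine too short to count, and the 3 matrix genes begin with another base than C.

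Of 65 ribosomal protein genes with a start sequence, 49 began with such a run (75.4%), against 13 of 63 translation factors (20.6%), 7 of 79 non-collagen matrix genes (8.86%) and 801 of 10946 genes with a footprint (7.32%). Over all 35116 start windows in the reference table, 4.07% held it. Ribosomal proteins with the run had a median log2 fold change of -0.34 (3 of 49 higher, 27 lower), and those without it had -0.27 (none of 16 higher, 8 lower). Outside the ribosomal proteins, genes with the run had a median of -0.09 (111 of 443 higher, 144 lower) and genes without it 0.01 (1552 of 5583 higher, 1419 lower). The match is of letters at 1 annotated start per gene, on a build that may differ from the one the authors used, and is no measure of where these cells began transcription.

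Translation factors held 2.63, 2.81 and 2.89% in Pro and 2.08, 2.31 and 2.34% in Sen. Of 72 tested, 9 were higher and 39 lower, or 1 and 10 under DESeq2. EEF1A1, the elongation factor that brings aminoacyl-tRNA to the ribosome, held 0.743, 0.957 and 1.0% in Pro and 0.596, 0.725 and 0.711% in Sen; the groups did not overlap and the gene did not pass (log2 fold change -0.33 ± 0.19 SE, edgeR adjusted p = 0.175). EEF2, which moves the ribosome along by 1 codon, went the other way, from 0.366, 0.308 and 0.339% to 0.347, 0.388 and 0.438%, with overlap and a call near the threshold (log2 fold change 0.34 ± 0.18 SE, edgeR adjusted p = 0.126). EIF4A1, the helicase of initiation, fell from 0.108% ± 0.0219 to 0.0651% ± 0.00448 (log2 fold change -0.49 ± 0.17 SE, edgeR adjusted p = 0.0131). Both elongation factors begin with the run in capitals above, and their mean shares differed between states in opposite directions.

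None of the 22 tRNA synthetases tested rose and 17 fell, with a median log2 fold change of -0.69. The class held 0.596, 0.725 and 0.712% in Pro and 0.387, 0.380 and 0.415% in Sen. WARS, which charges tryptophan tRNA, fell from 0.0643, 0.0606 and 0.0641% to 0.0238, 0.0165 and 0.0230% (log2 fold change -1.31 ± 0.16 SE, edgeR adjusted p = 3.26e-10), GARS, for glycine, from 0.0771% ± 0.00964 to 0.0437% ± 0.0103 (log2 fold change -0.86 ± 0.17 SE, edgeR adjusted p = 1.64e-05), and EPRS, for glutamate and proline, from 0.0564% ± 0.0154 to 0.0304% ± 0.00417 (log2 fold change -0.81 ± 0.17 SE, edgeR adjusted p = 4.45e-05). Without the shallow libraries 17 fell and 1 rose. Ribosome biogenesis and nucleolar genes went from 0.679% ± 0.0141 to 0.482% ± 0.0594, with 5 of 70 higher and 40 lower (0 and 9 under DESeq2). NPM1, a nucleolar chaperone of ribosome assembly, fell from 0.0430% ± 0.00269 to 0.0233% ± 0.00497 (log2 fold change -0.94 ± 0.16 SE, edgeR adjusted p = 1.87e-06), and NCL, nucleolin, from 0.105% ± 0.0130 to 0.0728% ± 0.0194 (log2 fold change -0.49 ± 0.17 SE, edgeR adjusted p = 0.0147). Mitochondrial ribosome and import genes went from 0.772% ± 0.0712 to 0.597% ± 0.0438. Of 113 tested, 40.7% were called, against 54.4% of all genes tested: 9 were higher and 37 lower (1 and 4 under DESeq2).

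The share of splicing factors and hnRNP proteins, which process messenger RNA in the nucleus, fell by 1.20 points, as did that of the ribosomal proteins. They held 3.07, 2.94 and 2.88% in Pro and 1.70, 1.82 and 1.77% in Sen, and of 156 tested 5 rose and 104 fell (median -0.61). HNRNPA2B1, an RNA-binding protein of splicing and transport, fell from 0.0772, 0.101 and 0.104% to 0.0391, 0.0420 and 0.0374% (log2 fold change -1.21 ± 0.17 SE, edgeR adjusted p = 6.6e-09). HNRNPU, which also binds chromatin, fell from 0.0933% ± 0.0160 to 0.0444% ± 0.00802 (log2 fold change -0.93 ± 0.17 SE, edgeR adjusted p = 5.26e-06), HNRNPK from 0.125% ± 0.00359 to 0.0817% ± 0.00841 (log2 fold change -0.51 ± 0.17 SE, edgeR adjusted p = 0.0104), and the helicase DDX5 from 0.0815% ± 0.00304 to 0.0484% ± 0.00311 (log2 fold change -0.67 ± 0.16 SE, edgeR adjusted p = 0.000558). Each Sen library lay below each Pro library for all 4. Nuclear pore and transport genes were called lower for 40 of 57 and higher for 5 (11 and 1 under DESeq2). Yet the class shares overlapped, at 0.703, 0.830 and 0.837% and 0.508, 0.711 and 0.569%. RANBP1, a partner of the GTPase RAN, held 0.0334, 0.0223 and 0.0201% in Pro and 0.0285, 0.152 and 0.0696% in Sen, highest in the shallow Sen 2. It was called higher with overlapping shares (log2 fold change 1.57 ± 0.23 SE, edgeR adjusted p = 2.25e-08). Without RANBP1 the class went from 0.765% ± 0.0821 to 0.513% ± 0.0415 with no overlap. RAN itself fell from 0.0818% ± 0.00456 to 0.0476% ± 0.00668 (log2 fold change -0.64 ± 0.16 SE, edgeR adjusted p = 0.00104). Zinc finger and immediate early transcription factors went from 1.07% ± 0.0789 to 0.951% ± 0.0559, with Sen 2 (1.01%) just below Pro 2 (1.02%). Of 142 tested, 37 were higher and 38 lower, or 27 and 55 under library totals. That is 52.8% called, near the 54.4% of all genes tested.

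Histones (core, variant and linker histones together) had the lowest ratio of senescent to proliferating share of the 37 classes. They held 1.07, 1.03 and 1.01% in Pro and 0.255, 0.307 and 0.219% in Sen, a ratio of 0.252, and of 71 tested 67 fell and 1 rose (median -2.25). HIST1H1B, a linker histone, fell from 0.0658, 0.0635 and 0.0598% to 0.00723, 0.0116 and 0.00865% (log2 fold change -2.84 ± 0.18 SE, edgeR adjusted p = 7.8e-23), HIST1H1E, another, from 0.0569% ± 0.0160 to 0.00921% ± 0.00200 (log2 fold change -2.51 ± 0.19 SE, edgeR adjusted p = 9.97e-20), and HIST1H1C from 0.0761% ± 0.00574 to 0.0279% ± 0.00674 (log2 fold change -1.42 ± 0.17 SE, edgeR adjusted p = 3.83e-11). H2AFZ, a variant made throughout the cell cycle from a polyadenylated message, fell as well, from 0.0464% ± 0.00682 to 0.0164% ± 0.00107 (log2 fold change -1.45 ± 0.17 SE, edgeR adjusted p = 1.71e-11). The 1 histone that rose was the variant H2AFJ (log2 fold change 0.74 ± 0.29 SE, edgeR adjusted p = 0.0335), named after its values were seen, and its shares overlapped. Canonical histone genes are near-identical copies, so counts of single copies are uncertain while their sum is less so.

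Mitosis and chromosome segregation genes held 0.740, 0.828 and 0.827% in Pro and 0.255, 0.370 and 0.293% in Sen, with 90 of 103 lower and 3 higher (median -1.87). TOP2A, the topoisomerase that separates sister chromatids, fell from 0.0257, 0.0446 and 0.0448% to 0.00598, 0.0183 and 0.00754%, highest of its state in Sen 2 (log2 fold change -2.48 ± 0.19 SE, edgeR adjusted p = 1.83e-18), and CCNB1, the mitotic cyclin, from 0.0233% ± 0.00589 to 0.00518% ± 0.00160 (log2 fold change -2.09 ± 0.19 SE, edgeR adjusted p = 2.81e-15). The Sen 2 value of CCNB1 rests on 2 footprints, under the floor of 3. Among the most read members UBE2S, a ubiquitin-conjugating enzyme of mitotic exit, did not pass, and BUB3, of the spindle checkpoint, was called lower near the threshold (edgeR adjusted p = 0.136) with overlapping shares. HMG proteins and chromatin regulators went from 1.06% ± 0.0207 to 0.649% ± 0.0465, with 5 of 88 higher and 52 lower. XRCC5 and XRCC6, the Ku proteins of DNA end joining, fell from 0.0792% ± 0.00125 to 0.0404% ± 0.00181 and from 0.0608% ± 0.00504 to 0.0429% ± 0.00620.

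DNA replication genes fell one by one without a fall of their summed share. Of 56 tested, 40 fell and 5 rose, with a median log2 fold change of -0.94, while the class held 0.542, 0.467 and 0.488% in Pro and 0.541, 0.505 and 0.641% in Sen, with overlap. PCNA, the sliding clamp of DNA polymerases, fell from 0.0221, 0.0210 and 0.0215% to 0.00906, 0.00823 and 0.0121% (log2 fold change -0.96 ± 0.18 SE, edgeR adjusted p = 6.25e-06), and RRM2, the regulated subunit of ribonucleotide reductase, from 0.0221, 0.0385 and 0.0376% to 0.0127, 0.0146 and 0.0161% (log2 fold change -1.25 ± 0.17 SE, edgeR adjusted p = 6.4e-09). The list also holds the G1 cyclins and their kinases, which drive entry into S phase and do not replicate DNA. CCND1, cyclin D1, rose from 0.115, 0.0640 and 0.0658% to 0.270, 0.224 and 0.312% (log2 fold change 2.03 ± 0.19 SE, edgeR adjusted p = 9.52e-15). CCND2, cyclin D2, rose from 0.00459, 0.00416 and 0.00329% to 0.0522, 0.0466 and 0.0794% (log2 fold change 4.26 ± 0.22 SE, edgeR adjusted p = 1.05e-28). Its Pro 1 value rests on 2 footprints, under the floor of 3. CCND3, CDK6 and POLD4, named after their values were seen, were the other members that rose, with log2 fold changes of 1.89, 1.78 and 1.52. Without CCND1 the class went from 0.418% ± 0.0124 to 0.294% ± 0.0311, without overlap.

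The genes by which senescence is commonly recognised differed widely in footprints. CDKN1A, the CDK inhibitor p21, held 0.0570, 0.0330 and 0.0285% in Pro and 0.0856, 0.0621 and 0.0612% in Sen, with Pro 1 closest to the senescent libraries (log2 fold change 1.26 ± 0.18 SE, edgeR adjusted p = 7.82e-09). CDKN2A, which encodes the inhibitor p16 and ARF, held 0.00919, 0.00526 and 0.00591% in Pro and 0.0166, 0.00731 and 0.0142% in Sen; Sen 2 lay below Pro 1, so the groups overlapped, and the gene passed (log2 fold change 1.53 ± 0.19 SE, edgeR adjusted p = 6.31e-10). CDKN2B, the inhibitor p15, was thinly read, with 1, 7 and 22 footprints in Pro 1 to 3 and 101, 0 and 35 in Sen 1 to 3, and passed with overlapping shares (log2 fold change 2.37 ± 0.32 SE, edgeR adjusted p = 5.29e-09). The zero in Sen 2 allows up to 0.00548% there.

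LMNB1, the lamin B1 of the nuclear envelope, fell from 0.00919, 0.0140 and 0.0157% to 0.00123, 0.00183 and 0.00214% (log2 fold change -3.20 ± 0.26 SE, edgeR adjusted p = 4.02e-18). Its Sen 2 value rests on 1 footprint, under the floor of 3, and its Pro 1 value on 5. The chromatin proteins HMGB1 and HMGB2 fell too. HMGB1 held 0.0472, 0.0402 and 0.0362% in Pro and 0.0133, 0.0158 and 0.00962% in Sen (log2 fold change -1.54 ± 0.17 SE, edgeR adjusted p = 6.9e-12), and HMGB2, at 0 in Sen 2, held 0.0122% ± 0.00605 in Pro and 0.00143% ± 0.00128 in Sen (log2 fold change -2.54 ± 0.24 SE, edgeR adjusted p = 2.11e-14). MKI67, the marker of cycling cells, fell from 0.0165, 0.0166 and 0.0107% to 0.00143, 0.00366 and 0.00240% (log2 fold change -2.75 ± 0.26 SE, edgeR adjusted p = 7.46e-15). Its Sen 2 value rests on 2 footprints, also under the floor. As a class, CDK inhibitors and p53 targets went from 0.195% ± 0.0203 to 0.260% ± 0.0151, with 14 of 29 higher and 5 lower. GADD45A, a stress-induced p53 target, rose from 0.00571% ± 0.00179 to 0.0238% ± 0.00607 (log2 fold change 1.79 ± 0.19 SE, edgeR adjusted p = 1.03e-12). Its Pro 1 value rests on 2 footprints, under the floor of 3. The kinase PLK2, also a p53 target, fell from 0.0245% ± 0.000809 to 0.00855% ± 0.00111 (log2 fold change -1.30 ± 0.17 SE, edgeR adjusted p = 2.68e-09).

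**Figure D4:**
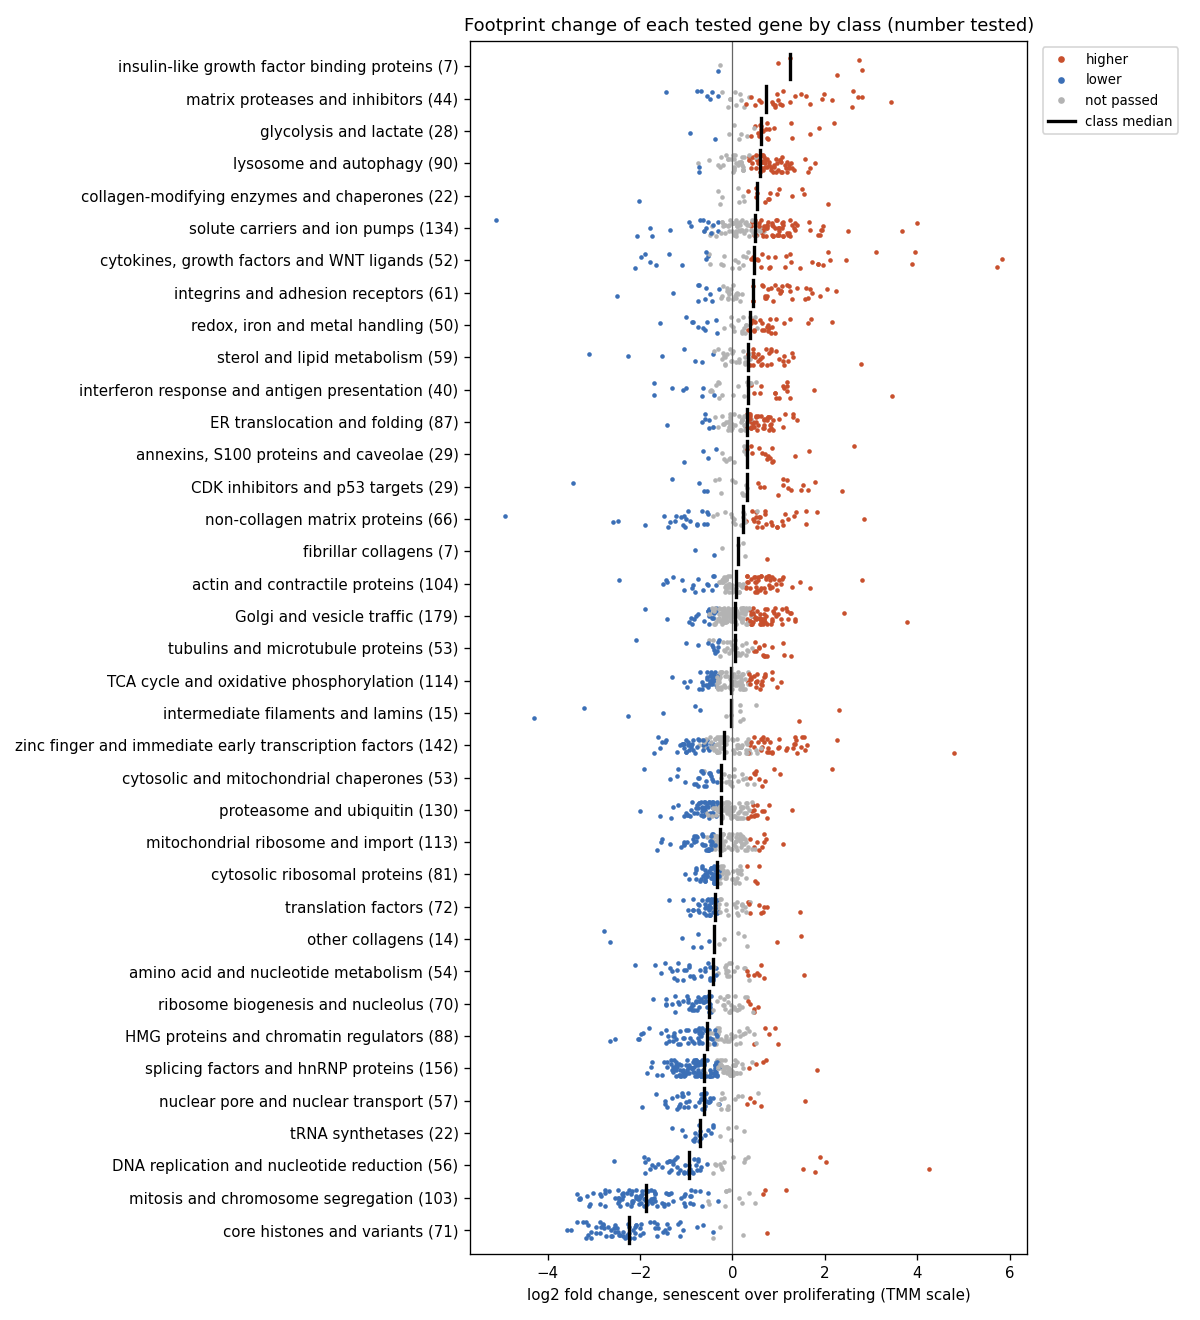
Log2 fold change (horizontal axis, senescent over proliferating, TMM scale) of each tested gene of the 37 classes, with the number tested in brackets, coloured by the test result and with a black bar at the class median. Lysosome genes lie mostly to the right (56 of 90 higher), histones and mitosis genes lie far to the left (67 of 71 and 90 of 103 lower), and the 5 replication genes to the right of zero in orange include CCND1 and CCND2.

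Chaperones and the proteasome lost share in small steps. Cytosolic and mitochondrial chaperones went from 1.97% ± 0.130 to 1.64% ± 0.0791, with 10 of 53 higher and 24 lower. HSP90AA1, the inducible HSP90, fell from 0.179, 0.227 and 0.249% to 0.153, 0.132 and 0.153% (log2 fold change -0.47 ± 0.18 SE, edgeR adjusted p = 0.0231), and HSPA8, the constitutive HSP70, overlapped and did not pass, at 0.303% ± 0.0244 in Pro and 0.322% ± 0.0798 in Sen. Proteasome and ubiquitin genes went from 1.95% ± 0.0440 to 1.69% ± 0.0407. Of 130 tested, 50.8% were called, against 54.4% of all genes tested: 14 were higher and 52 lower (2 and 7 under DESeq2). PSMD2, a subunit of the regulatory cap, went against that count, from 0.0587% ± 0.00325 to 0.0861% ± 0.00170 (log2 fold change 0.69 ± 0.16 SE, edgeR adjusted p = 0.000348), and so did VCP, the segregase that feeds the proteasome, from 0.0753% ± 0.0121 to 0.101% ± 0.0146 (log2 fold change 0.46 ± 0.17 SE, edgeR adjusted p = 0.023). Interferon response and antigen presentation genes held 0.465, 0.462 and 0.464% in Pro and 0.548, 0.489 and 0.533% in Sen. Of 40 tested, 60% were called, against 54.4% of all genes tested: 16 were higher and 8 lower, or 16 and 13 under library totals. HLA-B, a class I antigen-presenting chain, rose from 0.0196% ± 0.00215 to 0.0421% ± 0.00245 (log2 fold change 1.18 ± 0.16 SE, edgeR adjusted p = 5.85e-09), and B2M, its light chain, did not pass, at 0.0916% ± 0.00711 in Pro and 0.0912% ± 0.00497 in Sen.

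COL1A1 led the list of heavily read genes in both states. THBS1 went from the 16th to the fourth place, FN1 from the seventh to the second and TAGLN from the 27th to the tenth, and COL6A3 went from the eighth to the 33rd. Per kilobase of coding sequence, which allows levels of genes to be compared, TMSB10 led in proliferating cells with 15063 ± 298 CPM per kb and was 11th in senescent cells with 5112 ± 2030. LGALS1 went from the sixth to the first place, from 6326 ± 66.1 to 10655 ± 1700 CPM per kb, and IGFBP7 from the 233rd to the 15th, from 716 ± 96.5 to 4175 ± 580. The median ribosomal protein stood at 1180 ± 93.7 CPM per kb in Pro and 857 ± 54.0 in Sen, the highest of the 37 classes in Pro and the second highest in Sen, after the 7 insulin-like growth factor binding proteins; coding lengths were matched for only 2 of 71 tested histones and 4 of 22 tRNA synthetases.

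Senescent libraries packed their footprints into fewer genes. In Pro 1 to 3, 563, 543 and 530 genes held 50% of the footprints, and in Sen 1 to 3 it took 425, 475 and 410. The 100 most read genes held 25.9% ± 0.537 in Pro and 29.1% ± 1.19 in Sen (two-sided exact permutation p = 0.1, the smallest that n = 3 against 3 allows, for both measures). The top 10 held 8.76% ± 0.161 and 9.01% ± 0.301 (exact permutation p = 0.4, n = 3 against 3). After each library was thinned to the depth of the shallowest, 50% was held by 560, 527 and 515 genes in Pro and by 406, 472 and 399 in Sen, so the gap was there at matched depth. At that depth the shares of the top 10 did not overlap (exact permutation p = 0.1, n = 3 against 3), but only just. Pro 2 held 8.77% and Sen 2 8.79%, against 8.91% and 8.76% at full depth. The thinning was 1 random draw.

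**Figure D5:**
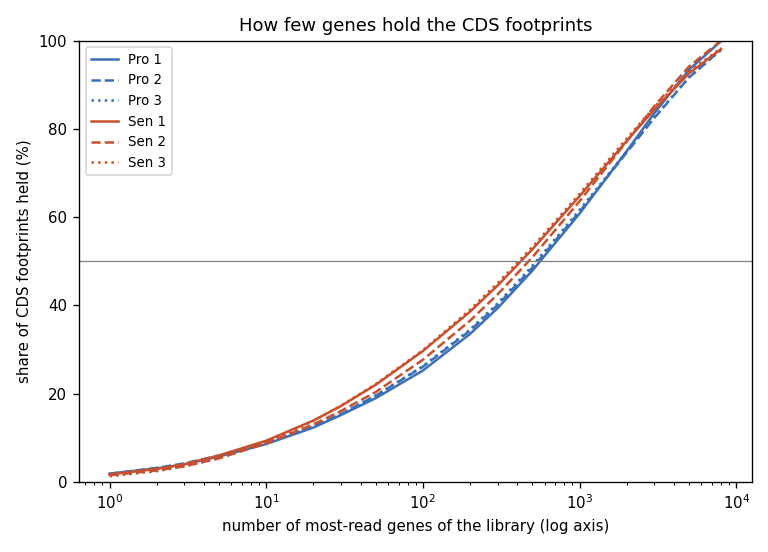
Cumulative share of CDS footprints (vertical axis, %) held by the most read genes of each library (horizontal log axis, number of genes), blue for proliferating and orange for senescent, with a line at 50%. The curves lie close together at 10 genes and part at 100, where senescent libraries hold 29.1% on average and proliferating ones 25.9%.

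Long coding sequences lost share. Genes with at least 4000 coding nucleotides held 13.3, 14.6 and 14.7% in Pro and 12.1, 12.4 and 11.7% in Sen, with a median log2 fold change of -0.34. Genes of 500 to 999 nucleotides held 22.9, 21.8 and 21.3% in Pro and 24.2, 23.7 and 24.2% in Sen, also without overlap, and those of 1000 to 1999 nucleotides 33.4% ± 0.258 and 34.3% ± 0.320. Genes under 500 nucleotides held 9.72% ± 0.609 in Pro and 8.76% ± 0.577 in Sen, with overlap, and those of 2000 to 3999 nucleotides overlapped too. Only genes with a matched coding length enter these values, which leaves out most tested histones and tRNA synthetases. Whether the groups under 500 nucleotides would overlap with those genes included was not tested. The footprint-weighted mean coding length was 2144 ± 83.6 nucleotides in Pro and 2034 ± 29.9 in Sen (exact permutation p = 0.2, n = 3 against 3). Several genes named above lie at the ends of this scale: COL6A3 and COL12A1 are among the longest, with 9531 and 9189 coding nucleotides, and FN1, at 7431, gained share against the trend of its length.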

How the data were processed

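Ribosome footprints were measured in 3 proliferating and 3 senescent IMR90 samples. The authors trimmed and aligned the reads and deposited, for each library, estimated counts per gene symbol for the CDS, both UTRs and other regions; values are unscaled, and 12.1 to 22.7% of nonzero CDS values were not whole, as when a read is shared between features. The submitters' processing notes name cutadapt 1.18, Bowtie 1.0.1, SAMtools 1.8 and DESeq2 1.22.2. The genome build and the handling of reads with several placements were not given in the sources used here.

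Shares were computed from the deposited CDS values of each library. For the test, values were rounded, genes were kept by edgeR's filterByExpr, and senescent was compared with proliferating by edgeR 4.0.16 (glmQLFit and glmQLFTest, TMM, no covariate), with Benjamini-Hochberg adjustment over all genes tested and a threshold of 0.15, after the study's false discovery rate. The fit weighs libraries by depth, so a fold change can differ from the ratio of mean shares. The test was checked on simulated counts. DESeq2 1.42.0, limma-voom 3.58.1, RLE factors, library totals, other count filters and fits without each library were alternatives. No 2 libraries agreed within sampling noise. Same-numbered libraries showed little shared deviation (r = 0.0077 to 0.0422), but the shallow Pro 1 and Sen 2 limit that check.

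Classes of gene function, and all other members and lists, were chosen with earlier results of these data known. Genes named are the 10 largest gains and 10 largest losses of mean share among called genes without overlap, the up to 4 most read members of each class described, and the 7 state markers CDKN1A, CDKN2A, CDKN2B, LMNB1, HMGB1, HMGB2 and MKI67; others are said to be named after their values were seen, except starts printed as sequences. Of these genes, 1 of the 10 gains and 1 member of a class are not reported here. Coding lengths came from GENCODE v44 (GRCh37) by symbol (13469 of 14052 genes) and start sequences from RefSeq GRCh38.p14 (10946 of 14052). The amino acid composition of the output was not computed, since no protein table was used here. Exact permutation tests were two-sided. Figures used matplotlib 3.10.9.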

Additional observations from a re-analysis of the deposited data

Results flagged for a closer look

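Reads in the pseudogene column, which no comparison above uses, made up 3.63% of assigned reads on average in the senescent libraries (2.02 to 5.50%) and 1.61% in the proliferating ones (1.09 to 1.94%), so the senescent level lay above that of the controls. The columns of LINC genes (1.62, 12.3 and 5.43% in Sen 1 to 3 against 0.704 to 2.02% in Pro) and of the 5' UTR (4.15, 16.5 and 9.25% against 2.57 to 4.5%) were also high in Sen 2 and Sen 3, while Sen 1 lay within the range of Pro in both. The part of library composition in this difference was not tested.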

How the results depend on the processing

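Of 7521 genes tested, 4088 passed. The count fell to 2336 with the replicate block and to 1164 with DESeq2. Under a filter of 10 counts in each library, where fewer genes were tested, it was 610 of 828. It ranged from 2681 (without Sen 1) to 4556 (without Pro 1) when 1 library was left out. Genes called in both kept their sign under each of these settings. Deviations of same-numbered libraries correlated at 0.0077 to 0.0422, and those of differently numbered Pro and Sen libraries at -0.045 to 0.0138. Because Pro 1 and Sen 2 are shallow, these values cannot tell whether the numbers mark pairs. The cause of the lower counts under the block and DESeq2 was not tested. Without both shallow libraries, calls per class, both directions summed, stayed within 1.5 times but for fibrillar collagens (3 and 5). Single directions moved more: lower calls went from 38 to 58 for zinc finger genes, from 2 to 5 for lysosome genes and from 1 to 2 for collagen-modifying enzymes, and higher calls from 4 to 7 for ribosomal proteins, from 2 to 5 for intermediate filaments and from 1 to 2 for fibrillar collagens.

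With shares rescaled by TMM, the differences between states became -1.26 points for RNA and transcription, 2.84 for cytoskeleton and adhesion, -1.39 for genome and cell cycle, 0.101 for the immune theme, 1.01 for metabolism and transport, -1.69 for protein synthesis and 4.6 for secretory pathway and matrix, and protein folding and turnover reversed to 0.207. The other 79 of 80 theme differences kept their sign, as did 363 of 370 class differences; the 7 that did not were of redox genes and of intermediate filaments. In size, 7 theme differences, all under TMM rescaling, and 43 of the 370 class differences moved by more than the spread between replicates. The 27 named genes kept their direction in all 372 fits and their call in 364; COL1A2 lost it in 5, TUBB in 2 and TXNRD1 in 1. The planned amino acid composition and its alternatives were not run. Depth limits single genes in Pro 1 and Sen 2, where 1133 and 1107 genes had 10 or more footprints.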
